A study of Mus musculus with 12 samples.

Results

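The epidermal growth factor (EGF) receptor family and its ligands were followed as 10 genes, taken from the deposited gene tables by symbol: the receptors Egfr, Erbb2 and Erbb3 and the ligands Areg, Ereg, Hbegf, Tgfa, Btc, Epgn and Egf. They are 10 of 55487 genes in the tables. The libraries were made from C57BL/6 mice and formed 4 groups of 3: small intestine (SI) tissue and large intestine (LI) tissue, which are freshly isolated crypts of 1 mouse per library, and SI and LI monolayers, which are such crypts plated on Matrigel and grown for 24 h, each library from pooled wells. The study compared the regions and compared monolayers with tissue, and it examined EGFR, Lrig1 and Her2 (the product of Erbb2) as components upstream of ERK. SI crypts for culture came from the jejunum and were released with EDTA, whereas LI crypts were digested with collagenase and dispase before EDTA, so region and isolation cannot be told apart. All monolayers were kept in control medium that contained murine EGF, Wnt3a and R-spondin-1, with Noggin after a short seeding step in other inhibitors. Attachment, medium and time in culture therefore cannot be told apart either.

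EGF receptor family proteins are receptor tyrosine kinases that work in pairs. EGFR (Egfr) binds every ligand measured here, HER2 (Erbb2) binds no known ligand and serves as the preferred partner, and HER3 (Erbb3) binds neuregulins, has little kinase activity and couples its partner to PI3K. The ligands are made as membrane proteins that sheddases cut free, and receptor activity feeds the RAS-RAF-MEK-ERK and PI3K-AKT-mTOR pathways. In the intestine the pathway drives crypt proliferation and repair, and EGF is a standard part of organoid medium.

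Libraries held 59016196 to 76216530 counts on genes, and all 10 genes passed the filter on low counts that left 19581 genes to test. Values below are normalized counts, which are the counts divided by 1 size factor per library as the authors deposited them, and they are given in the order of replicates 1, 2 and 3. Fold changes come from edgeR on the raw counts, and a gene was called changed with an adjusted p under 0.05 and a change of at least 2-fold. The labels were checked with lists of 12 cell type markers each. Summed epithelial markers of SI were 1142403 to 1250925 normalized counts (tissue) and 2091099 to 2138288 (monolayers). Those of LI were 1988481 to 2010895 (tissue) and 2687944 to 2796104 (monolayers). They were thus higher in monolayers in both regions, with none of the 12 at 0 in all libraries of a group. Summed mesenchymal markers of SI were 624 to 1776 (tissue) and 632 to 1299 (monolayers), and those of LI were 2932 to 5344 (tissue) and 2471 to 3761 (monolayers). Summed immune markers of SI were 13307 to 14526 (tissue) and 3131 to 3518 (monolayers), and those of LI were 3212 to 3659 (tissue) and 286 to 317 (monolayers). Summed Paneth markers of SI ranged widely in tissue, from 378577 to 1875760, and were 569478 to 617476 in monolayers. Those of LI were 35030 to 74012 (tissue) and 38984 to 40372 (monolayers). Summed goblet markers of SI were 435777 to 747603 (tissue) and 342006 to 353490 (monolayers). Those of LI were 1324051 to 1651206 (tissue) and 133261 to 145998 (monolayers), above SI in tissue and below it in monolayers. In the paper, Muc2 staining gave more goblet cells in LI than in SI monolayers. No gene of the mesenchymal, immune, Paneth or goblet list was at 0 in all libraries of a group. These lists move with region or with culture, as the genes below do, and their part in the results was not tested. In bulk RNA, fewer cells of a type and less RNA per cell cannot be told apart.

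The ligand genes Epgn, Ereg, Areg and Btc are neighbours that lie within 375.5 kb of chromosome 5 (GRCm38, chr5:91027464-91402994), where the annotation lists 7 genes. The sequences upstream of Areg and Btc are shown because these neighbours rose more in SI than in LI culture, and that of Egfr because it is the receptor that passed the 2-fold minimum in culture. They are 250 bases long and end just before the transcription start, from RefSeq (GRCm38.p6), 5′ to 3′ on the strand of the gene. Areg lies at chr5:91139349-91139598 on the plus strand, Btc at chr5:91402995-91403244 on the minus strand and Egfr at chr11:16751953-16752202 on the plus strand. Capitals mark matches on either strand to 4 motifs: the AP-1 site TGANTCA, the cyclic AMP response element (CRE) TGACGTCA, the GC box GGGCGG, and the core of the TATA box, TATAAA.
Areg: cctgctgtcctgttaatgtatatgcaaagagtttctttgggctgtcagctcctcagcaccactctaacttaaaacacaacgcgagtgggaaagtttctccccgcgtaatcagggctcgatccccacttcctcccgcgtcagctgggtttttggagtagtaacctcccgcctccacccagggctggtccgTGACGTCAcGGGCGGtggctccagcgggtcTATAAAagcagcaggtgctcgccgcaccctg
Btc: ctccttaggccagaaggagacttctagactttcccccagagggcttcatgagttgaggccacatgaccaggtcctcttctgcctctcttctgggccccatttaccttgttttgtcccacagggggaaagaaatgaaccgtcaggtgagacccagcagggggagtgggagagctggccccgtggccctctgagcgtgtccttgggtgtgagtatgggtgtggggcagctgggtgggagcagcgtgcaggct
Egfr: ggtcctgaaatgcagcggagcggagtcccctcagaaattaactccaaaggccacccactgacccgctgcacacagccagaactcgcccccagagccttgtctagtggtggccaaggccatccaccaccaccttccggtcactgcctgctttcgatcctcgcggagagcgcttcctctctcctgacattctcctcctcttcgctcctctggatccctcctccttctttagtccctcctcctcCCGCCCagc
The Areg sequence held a CRE at positions -61 to -54 from the start, a GC box at -52 to -47 and a TATA match at -31 to -26, with no overlap among them. Egfr held 1 GC box, on the other strand, at -9 to -4, and Btc held none of the motifs. Over 32851 promoters of the same length, 1.55% held the CRE, 32.7% the GC box, 12.4% the TATA letters and 6.75% the AP-1 letters. A match is a description of these letters and not a site shown to be bound.

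Egfr was the receptor whose RNA changed by at least 2-fold with culture, and it rose in both regions. Normalized counts of Egfr were 1263, 1219 and 1279 in SI tissue and 4696, 4659 and 4633 after SI culture, and 2327, 1948 and 1910.4 in LI tissue and 13051, 13051 and 13157 after LI culture. Monolayers lay above tissue and LI above SI with no overlap of libraries. In SI monolayers Egfr rose 3.81-fold over SI tissue (log2 fold change 1.93 ± 0.06 SE, adjusted p = 6.67e-13). In LI monolayers it rose 6.56-fold over LI tissue (2.71 ± 0.06, adjusted p = 5.62e-15). Between the regions Egfr was 2.75-fold higher in LI than in SI monolayers (SI minus LI, -1.46 ± 0.06, adjusted p = 1.3e-11). In tissue it was 1.6-fold higher in LI (-0.68 ± 0.06, adjusted p = 1.42e-07), short of the 2-fold minimum. The difference between the regional responses, -0.78 ± 0.09 with an adjusted p = 2.09e-06, was also short of it.

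**Figure D1:**
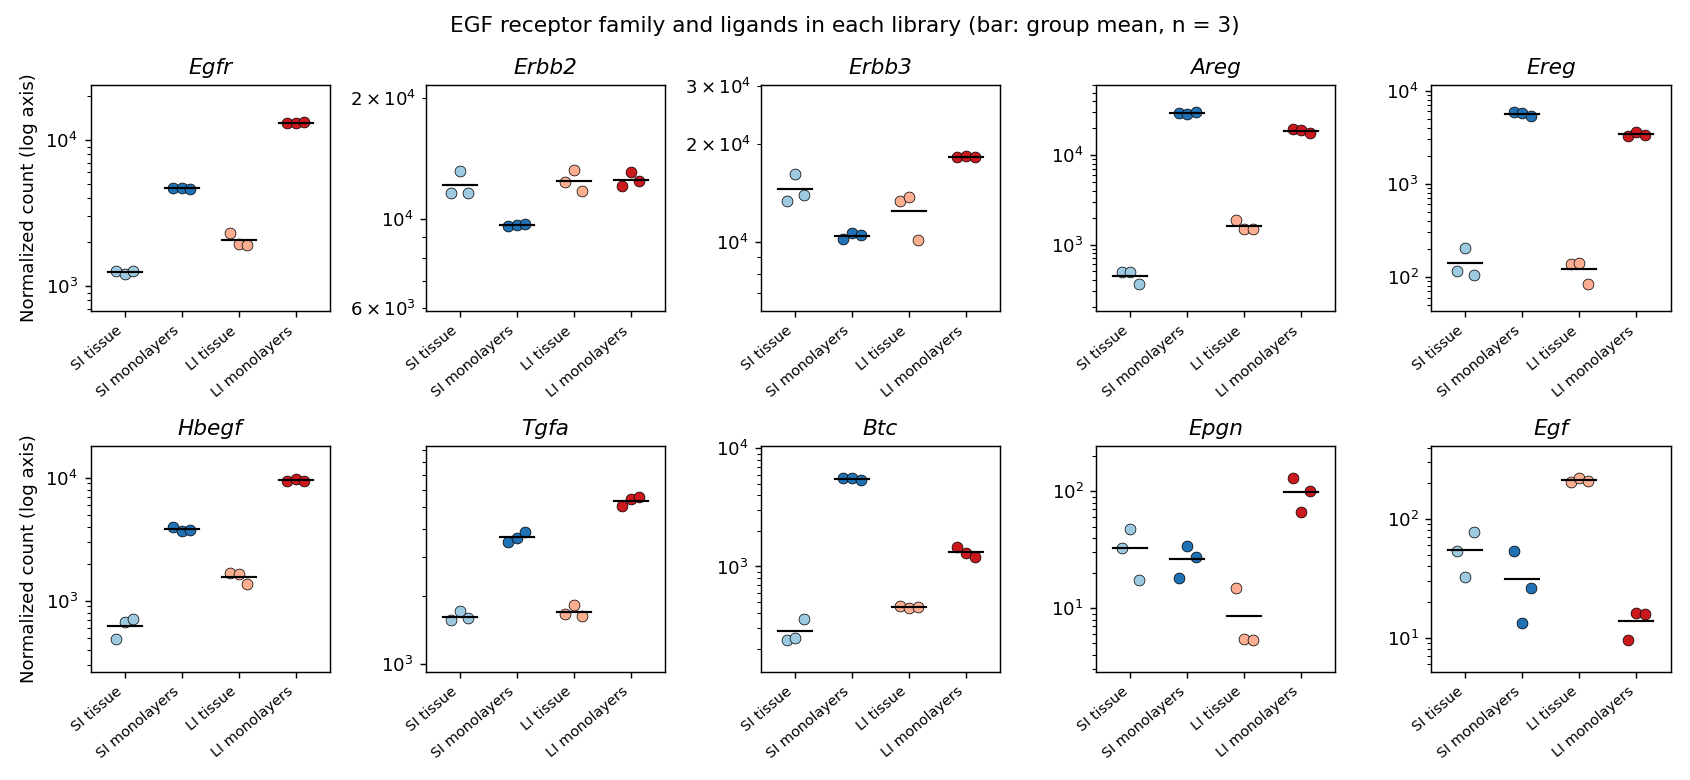
Normalized counts (log axes, each panel on its own scale) of the 10 genes in the 12 libraries, grouped by region and preparation. Points are libraries and bars are means of 3 libraries; Egfr, Areg, Ereg, Hbegf, Tgfa and Btc lie higher in monolayers than in tissue in both regions, while Egf is highest in LI tissue (203 to 222).

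Erbb2, the co-receptor, varied least of the 10 between groups. Its normalized counts were 11609, 13187 and 11590.4 (SI tissue) and 9587, 9644 and 9727 (SI monolayers), against 12369, 13273 and 11731 (LI tissue) and 12111, 13062 and 12427 (LI monolayers). Only SI monolayers lay apart, below every other library. The change in SI culture was -0.29 ± 0.06 (adjusted p = 0.000347), and the SI minus LI difference in monolayers was -0.35 ± 0.06 (adjusted p = 9.25e-05), both short of 2-fold. In LI culture the change was 0.05 ± 0.06 (adjusted p = 0.414), and in tissue the SI minus LI difference was 0.00 ± 0.06 (adjusted p = 0.985); the signs of these last values turned under other scalings, of which upper quartile normalization moved the median of all genes by -0.118 in LI culture and -0.0735 between tissues. The exons of Erbb2 overlap those of Mien1 on the opposite strand, which had at most 1474 counts in any library, and whether counting used strand is not stated in the sources used here.

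Erbb3 had changes of opposite sign in the cultures of the 2 regions, each under 2-fold. Its normalized counts were 13324, 16192 and 13969 in fresh and 10229, 10643 and 10522 in cultured SI crypts, and 13379.8, 13787 and 10120.5 in fresh and 18171, 18378 and 18236 in cultured LI crypts. SI monolayers lay below SI tissue and LI monolayers above all other groups, while the tissue groups overlapped. The log2 changes in culture were -0.44 ± 0.09 in SI (adjusted p = 0.00123) and 0.60 ± 0.09 in LI (adjusted p = 6.06e-05). The difference between them was -1.04 ± 0.13 (adjusted p = 2.55e-05) and passed the 2-fold minimum narrowly. It was -0.96 with upper quartile normalization and between -1.12 and -0.91 when 1 library was left out. In 8 of these 12 fits it came under 2-fold. Leaving out any monolayer library moved the median difference of all genes by 0.101 to 0.111. In monolayers Erbb3 was 1.71-fold higher in LI than in SI (SI minus LI, -0.77 ± 0.10, adjusted p = 1.03e-05).

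Areg, which encodes amphiregulin, had the largest rise of the 10 genes in SI culture. Normalized counts of Areg were 490.5, 492 and 359.8 in SI tissue and 29760.3, 29084 and 30415 after SI culture, and 1861, 1487 and 1475 in LI tissue and 19429.8, 19101 and 17838 after LI culture. No groups overlapped, and the order of the regions was LI above SI in tissue and SI above LI in monolayers. Areg rose 68.3-fold in SI monolayers (6.09 ± 0.13, adjusted p = 3.82e-13) and 12.1-fold in LI monolayers (3.59 ± 0.11, adjusted p = 4.87e-12). The SI response exceeded the LI response by 2.50 ± 0.15 (adjusted p = 2.49e-08). Tissue Areg was 3.50-fold higher in LI (SI minus LI, -1.81 ± 0.11, adjusted p = 1.41e-08). The difference in monolayers, 0.69 ± 0.10 with an adjusted p = 6.2e-05, was short of 2-fold.

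Ereg, which encodes epiregulin, rose steeply in both cultures. Its normalized counts were 116, 205 and 106 (SI tissue) and 5834, 5766 and 5325 (SI monolayers), against 137, 142 and 84.8 (LI tissue) and 3288, 3629 and 3355 (LI monolayers). Tissue libraries of the regions overlapped, and every SI monolayer library lay above every LI one. The rise was 40.5-fold in SI (5.34 ± 0.23, adjusted p = 9.4e-09) and 29.2-fold in LI (4.87 ± 0.23, adjusted p = 9.66e-09). The regional responses differed by 0.47 ± 0.31 (adjusted p = 0.246), so a difference was not detected. Between monolayers the SI minus LI value was 0.75 ± 0.18 (adjusted p = 0.00509), and in tissue 0.28 ± 0.25 (adjusted p = 0.392). Exons of Ereg overlap those of Gm19610 on the opposite strand, which had at most 339 counts.

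Hbegf, which encodes heparin-binding EGF-like growth factor, rose in both cultures and was higher in LI than in SI in each preparation. Hbegf read 492, 667 and 714 normalized counts in SI tissue against 3972, 3668 and 3802 in SI monolayers, and 1695, 1651 and 1380.1 in LI tissue against 9394, 9828 and 9388 in LI monolayers. The groups did not overlap, with LI above SI in each preparation. It rose 6.24-fold in SI (2.64 ± 0.11, adjusted p = 2.06e-10) and 6.25-fold in LI (2.64 ± 0.11, adjusted p = 6.01e-11). The difference of the responses was -0.00 ± 0.16 (adjusted p = 0.999). LI exceeded SI by 2.45-fold in tissue (-1.29 ± 0.11, adjusted p = 3.29e-07) and by 2.45-fold in monolayers (-1.29 ± 0.10, adjusted p = 1.82e-07).

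Tgfa, which encodes transforming growth factor alpha, had the smallest rise called in SI culture. Tgfa read 1564, 1715 and 1593 normalized counts in SI tissue and 3511, 3649 and 3897 after SI culture, and 1662, 1827 and 1641 in LI tissue and 5063, 5473 and 5549 after LI culture. The tissue groups overlapped, and LI monolayers lay above SI monolayers. It rose 2.32-fold in SI (1.22 ± 0.06, adjusted p = 1.4e-10) and 3.24-fold in LI (1.69 ± 0.06, adjusted p = 1.13e-12). SI minus LI was -0.03 ± 0.06 in tissue (adjusted p = 0.688) and -0.51 ± 0.06 in monolayers (adjusted p = 3.63e-06), the latter short of 2-fold.

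Btc, which encodes betacellulin, a ligand of both EGFR and ERBB4, was highest in SI monolayers. Btc read 239.9, 249 and 356 normalized counts in SI tissue against 5629, 5605 and 5421 in SI monolayers, and 460.5, 442 and 453 in LI tissue against 1457, 1299 and 1192 in LI monolayers. No groups overlapped. It rose 20.1-fold in SI (4.33 ± 0.13, adjusted p = 1.27e-12) and 3.01-fold in LI (1.59 ± 0.12, adjusted p = 1.07e-08), a difference of 2.74 ± 0.17 between the responses (adjusted p = 9.13e-09). SI monolayers held 4.30-fold more than LI monolayers (2.10 ± 0.11, adjusted p = 9e-10). In tissue the sign was the opposite, -0.63 ± 0.13 (adjusted p = 0.000547), short of 2-fold.

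Epgn, which encodes epigen, was scarce, with 6 to 136 counts per library. Epgn read 32.9, 48.0 and 17.6 normalized counts in SI tissue and 18.2, 33.8 and 27.4 after SI culture, and 15, 5.49 and 5.36 in LI tissue and 131, 66.6 and 101 after LI culture. SI libraries overlapped between tissue and monolayers, while LI monolayers lay above all other libraries and LI tissue below them. It rose 11.9-fold in LI culture (3.57 ± 0.49, adjusted p = 6.62e-06), against -0.27 ± 0.45 in SI culture (adjusted p = 0.633), and the responses differed by -3.83 ± 0.66 (adjusted p = 0.00018). SI exceeded LI by 3.88-fold in tissue (1.96 ± 0.50, adjusted p = 0.00342), and LI exceeded SI by 3.67-fold in monolayers (-1.88 ± 0.43, adjusted p = 0.00165).

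Egf was the single gene of the 10 that fell by at least 2-fold in either culture. Egf read 54.1, 32.3 and 77.2 normalized counts in SI tissue against 53.8, 13.3 and 26.4 in SI monolayers, and 203, 222 and 209.8 in LI tissue against 9.63, 16.1 and 15.8 in LI monolayers. LI tissue lay above every other library, and the SI groups overlapped. In LI culture Egf fell 14.8-fold (-3.89 ± 0.45, adjusted p = 9.65e-07), and in SI culture the value was -0.78 ± 0.41 (adjusted p = 0.113). The responses differed by 3.10 ± 0.60 (adjusted p = 0.000552). LI tissue held 3.75-fold more than SI tissue (-1.91 ± 0.39, adjusted p = 0.000553). The monolayer libraries of the regions overlapped, and their difference of 1.19 ± 0.47 (adjusted p = 0.0433) lay close to the threshold. It lost its call in 9 of the 12 fits that left out 1 library, among which it ranged from 0.59, without replicate 1 of SI monolayers, to 1.59. The SI culture value was called without that library (-1.39) and without replicate 2 of SI tissue (-1.06).

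Counted together, 6 of the 10 genes were called in SI culture, all of them higher in monolayers, where 26.1% of all tested genes were called in either direction, 9.71% higher and 16.4% lower. In LI culture 8 were called, 7 higher and 1 lower, beside 38.0% of all genes in either direction, 14.5% higher and 23.5% lower. The median log2 fold change of the 10 was 1.57 in SI and 2.17 in LI culture, beside -0.05 and -0.05 over all tested genes. Of the 7 ligands, 5 rose in SI and 6 in LI culture, and of the 3 receptors Egfr alone did in each. SI differed from LI in 4 of the 10 in tissue, 1 higher and 3 lower in SI, beside 22.7% of all genes in either direction, 11.6% higher and 11.1% lower. In monolayers 5 differed, 2 higher and 3 lower in SI, beside 21.2% of all genes, 12.4% higher and 8.88% lower. The responses to culture differed between regions for 5, with 3 more positive in SI and 2 more positive in LI, beside 20% of all genes, 11.4% and 8.51%. By the adjusted p alone, without the minimum of 2-fold, 8, 9, 7, 10 and 8 of the 10 passed in these comparisons, beside 59.6%, 68.7%, 53.9%, 51.8% and 46.3% of all tested genes. Groups did not overlap for 8 genes in SI culture, 9 in LI culture, 6 between tissues and 9 between monolayers. Over all tested genes 66.4%, 73.1%, 58.8% and 62.3% did not overlap in the same comparisons. These comparisons share libraries, so their counts are not independent of each other.

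**Figure D2:**
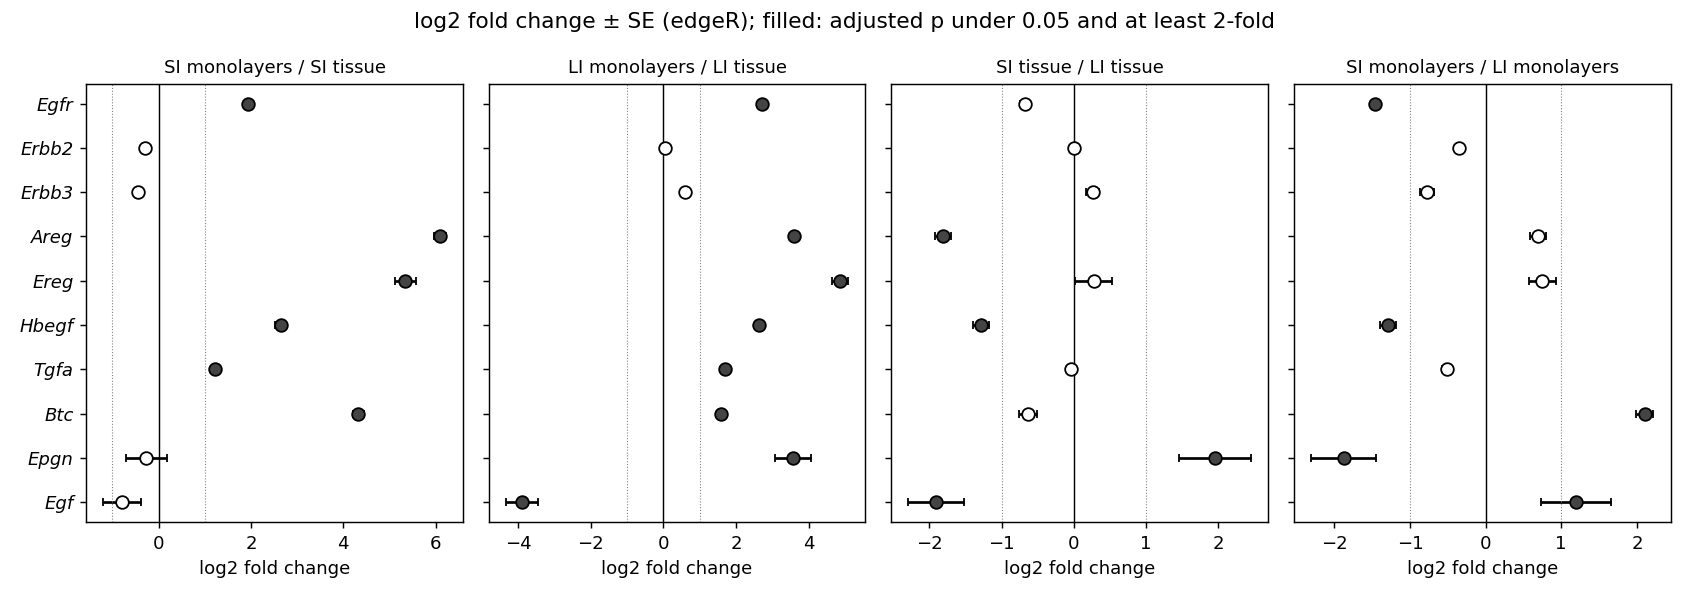
log2 fold changes with standard errors from edgeR for the 10 genes in 4 comparisons, monolayers over tissue in SI and in LI, and SI over LI in tissue and in monolayers. Filled points passed the adjusted p and the 2-fold minimum (dotted lines); Areg reaches 6.09 in SI culture and Egf -3.89 in LI culture.

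Levels of different genes were compared per kb of exon, as normalized counts per kb. Ranks depend on the length used, and the spreads given do not cover this. Hbegf has 4834 bases over all exons but 2890 in its longest transcript, and Egf 11275 and 4761. In SI tissue Erbb3 (2409 ± 250 SD, n = 3) and Erbb2 (2328 ± 176) led and did not differ beyond their spread, followed by Areg (368 ± 62.5), Tgfa (250 ± 12.3), Hbegf (129 ± 24.2), Egfr (111 ± 2.75) and Btc (62.3 ± 14.3). Hbegf and Egfr were within their spread of one another, taken here as a difference under the sum of their SDs. Ereg (34.5 ± 13.3) and Epgn (18.2 ± 8.40) came next, within their spread of one another, and Egf was last (4.84 ± 1.99). LI tissue had the order Erbb2 (2391 ± 149), Erbb3 (2066 ± 334), Areg (1323 ± 180.2), Hbegf (326 ± 35.3), Tgfa (263 ± 15.7), Egfr (182 ± 20.3), Btc (99.9 ± 2.05), Ereg (29.4 ± 7.68), Egf (18.8 ± 0.834) and Epgn (4.77 ± 3.07), in which Erbb2 and Erbb3 overlapped within their spread. Erbb2 and Erbb3 thus headed both tissues.

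In monolayers Areg stood first by a wide margin. SI monolayers had the order Areg (24487 ± 545), Erbb2 (1853 ± 13.6), Erbb3 (1739 ± 35.5), Ereg (1367 ± 66.9), Btc (1228 ± 25.2), Hbegf (789 ± 31.4), Tgfa (568 ± 30.2), Egfr (412 ± 2.81), Epgn (14.7 ± 4.34) and Egf (2.77 ± 1.83). LI monolayers had the order Areg (15463 ± 692), Erbb3 (3035 ± 17.9), Erbb2 (2405 ± 93.2), Hbegf (1973 ± 52.3), Egfr (1155 ± 5.77), Ereg (829 ± 43.9), Tgfa (826 ± 40.2), Btc (291 ± 29.4), Epgn (55.0 ± 17.8) and Egf (1.23 ± 0.323), and there Ereg and Tgfa did not differ beyond their spread. Egfr, at rank 6 of the 10 in both tissues, was at rank 8 in SI and rank 5 in LI monolayers.

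Summed over the 7 ligands, SI tissue held 867 ± 67.2 normalized counts per kb and SI monolayers 28460.0 ± 510.0. The LI sums were 2065 ± 210.0 in tissue and 19440.0 ± 720.0 in monolayers. The summed level of the 3 receptors ranged far less, from 4004 ± 42.4 in SI monolayers to 6597 ± 110.0 in LI monolayers, with 4848 ± 421 in SI tissue and 4639 ± 476 in LI tissue. In SI, Areg made up 42.3% ± 5.48 of the summed ligand level of tissue and 86.1% ± 0.429 of that of monolayers, and in LI 63.9% ± 2.73 and 79.5% ± 0.736. The share of Tgfa was 28.9% ± 1.22 in tissue and 2.0% ± 0.0913 in monolayers of SI, and 12.9% ± 1.52 and 4.26% ± 0.337 in those of LI, although its own level rose. Hbegf was 15.8% ± 1.10 in LI tissue and 10.2% ± 0.350 in LI monolayers, against 2.77% ± 0.0929 in SI monolayers. With the length of the longest transcript in place of all exons, the Hbegf shares were 15.6% in LI and 4.49% in SI monolayers, and Areg (34.1%) and Tgfa (33.3%) were nearly equal in SI tissue. In SI, Egfr made up 2.30% ± 0.241 of the summed receptor level of tissue and 10.3% ± 0.175 of that of monolayers, and in LI 3.94% ± 0.448 and 17.5% ± 0.311. These shares are descriptions without a test, and RNA shares say nothing of protein at the cell surface.

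**Figure D3:**
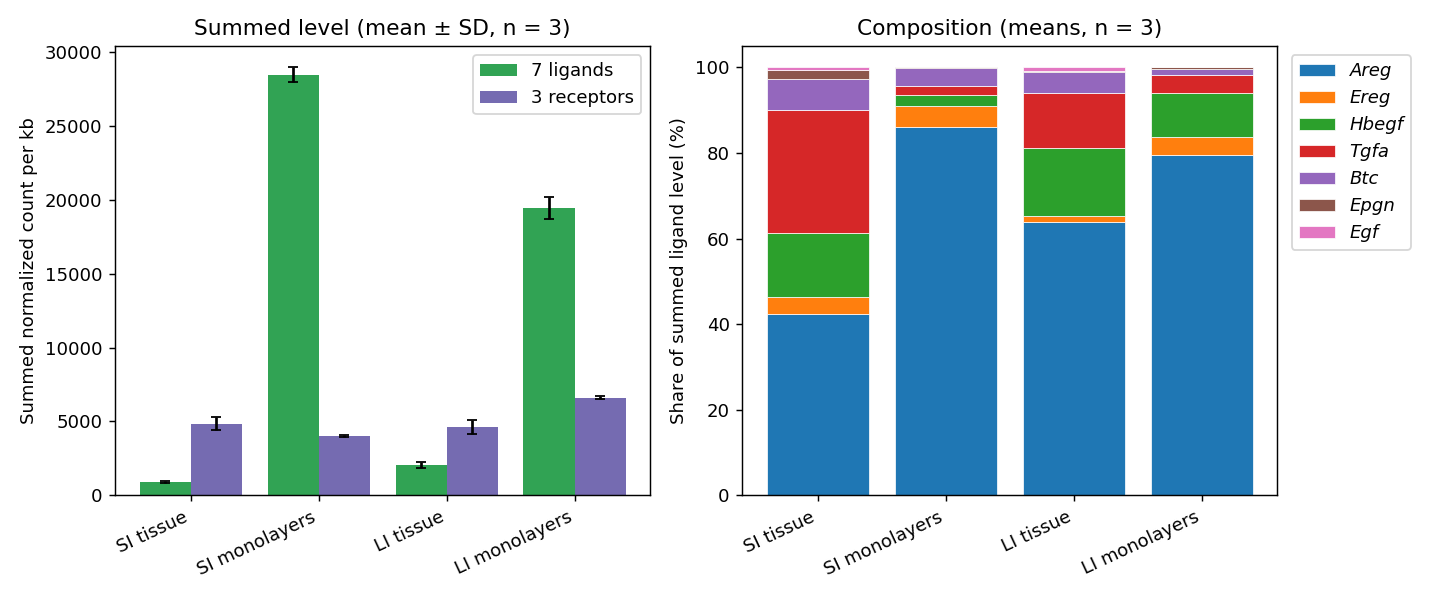
Left, summed normalized counts per kb of the 7 ligands and the 3 receptors (bars, mean ± SD of 3 libraries per group); right, share of each ligand in the summed ligand level, as means of 3 libraries (%). The ligand sum is 867 in SI tissue against 28460.0 in its monolayers, and 2065 against 19440.0 for LI, with Areg as the largest share in every group by exon length, though nearly equal to Tgfa in SI tissue by the longest transcript.

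Ratios within a library do not depend on how libraries are scaled. The Egfr to Erbb2 ratio per length was 0.0501, 0.0425 and 0.0508 in fresh and 0.225, 0.222 and 0.219 in cultured SI crypts, and 0.0865, 0.0675 and 0.0749 in fresh and 0.496, 0.46 and 0.487 in cultured LI crypts. No groups overlapped. The ratio was 1.59-fold higher in LI than in SI tissue and 2.16-fold higher in LI than in SI monolayers, each with p = 0.1 in a two-sided exact permutation test, which is the smallest p that 3 against 3 libraries allow. Against Lrig1, a membrane protein that restrains EGFR, the ratio was 0.102, 0.0903 and 0.093 in SI tissue and 0.39, 0.357 and 0.356 after SI culture, and 0.111, 0.1 and 0.0917 in LI tissue and 2.12, 2.1 and 2.1 after LI culture. It overlapped between the tissues, where LI was 1.06-fold above SI (exact permutation p = 0.6), and in monolayers it was 5.74-fold higher in LI (exact permutation p = 0.1, again the smallest possible).

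**Figure D4:**
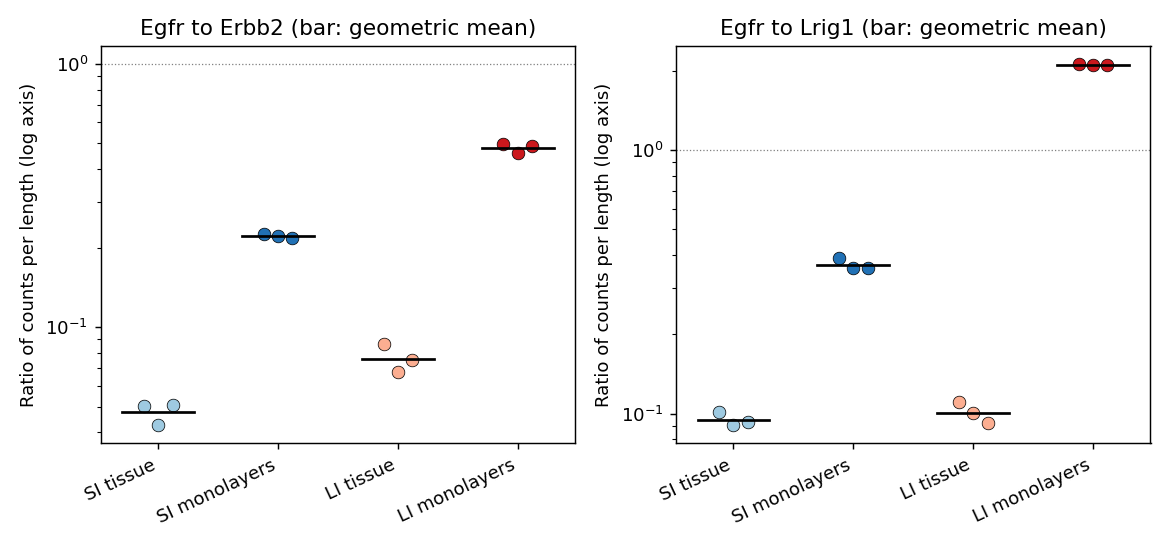
Ratio of Egfr to Erbb2 (left) and to Lrig1 (right) in counts per length, on log axes, in each of the 12 libraries by group, with geometric means as bars and a dotted line at a ratio of 1. LI monolayers are the highest group in both panels, at 0.46 to 0.496 and at 2.1 to 2.12.

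Lrig1 itself read 6117, 6652 and 6784 normalized counts in SI tissue and 5937, 6442 and 6417 after SI culture, and 10379, 9588 and 10270.5 in LI tissue and 3034, 3059 and 3085 after LI culture. It fell 3.19-fold in LI culture (-1.67 ± 0.06, adjusted p = 2.73e-13), against -0.02 ± 0.05 in SI culture (adjusted p = 0.747), and the responses differed by 1.65 ± 0.08 (adjusted p = 1.8e-10). SI monolayers held 2.09-fold more Lrig1 than LI monolayers (1.06 ± 0.06, adjusted p = 1.75e-10), while tissue gave -0.59 ± 0.05 (adjusted p = 1.55e-07), short of 2-fold.

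The remaining receptor of the family, Erbb4, and the neuregulins, each of which binds ERBB3, ERBB4 or both, were scarce. Erbb4 lay between 1.78 and 18.2 normalized counts in all libraries and was called in no comparison. Nrg1 read 23.1, 43.6 and 29.6 normalized counts in LI monolayers and at most 13.7 in any other library, and it rose in LI culture (1.88 ± 0.48, adjusted p = 0.00255). Nrg4 read 146, 131 and 152 (SI tissue) and 53.8, 58.8 and 52.9 (SI monolayers), against 56.4, 72.3 and 43.7 (LI tissue) and 15.4, 6.89 and 22.7 (LI monolayers). It fell in both cultures (-1.34 ± 0.30 in SI, adjusted p = 0.00103, and -1.86 ± 0.34 in LI, adjusted p = 0.000149). Nrg2 and Nrg3 did not pass the filter on low counts.

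Other parts of the pathway were read from lists of genes. Of 19 genes that ERK activity is known to induce, 13 rose and none fell in SI culture, and 13 rose and 2 fell in LI culture. Over all tested genes 9.71% rose and 16.4% fell in SI culture, and 14.5% and 23.5% in LI culture. The median log2 fold changes of the 19 were 2.04 and 1.71, beside -0.05 and -0.05 over all tested genes. Fosl1, an AP-1 subunit, rose most in each (6.28 ± 0.28 in SI, adjusted p = 2.88e-11, and 6.29 ± 0.24 in LI, adjusted p = 2.2e-12). It was scarce in tissue, at 2.35 to 13.55 normalized counts in SI and 11.61 to 25.37 in LI. Fos, another subunit, fell in LI culture (-2.13 ± 0.08, adjusted p = 1.72e-12). Between the regions, 2 of the 19 were higher and 7 lower in SI than in LI tissue, and none was higher and 6 were lower in SI monolayers. The shares of all tested genes were 11.6% higher and 11.1% lower in SI tissue, and 12.4% and 8.88% in SI monolayers. Ier3, an early response gene, differed most in monolayers (-2.26 ± 0.09, adjusted p = 7.25e-11). In tissue Etv5, an ETS factor, was lower in SI (-2.88 ± 0.15, adjusted p = 1.41e-10) and Epha2, an ephrin receptor, was higher (1.23 ± 0.11, adjusted p = 8.74e-07). The median SI minus LI values were -0.55 in tissue and -0.50 in monolayers, beside 0.06 and 0.02 over all tested genes.

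**Figure D5:**
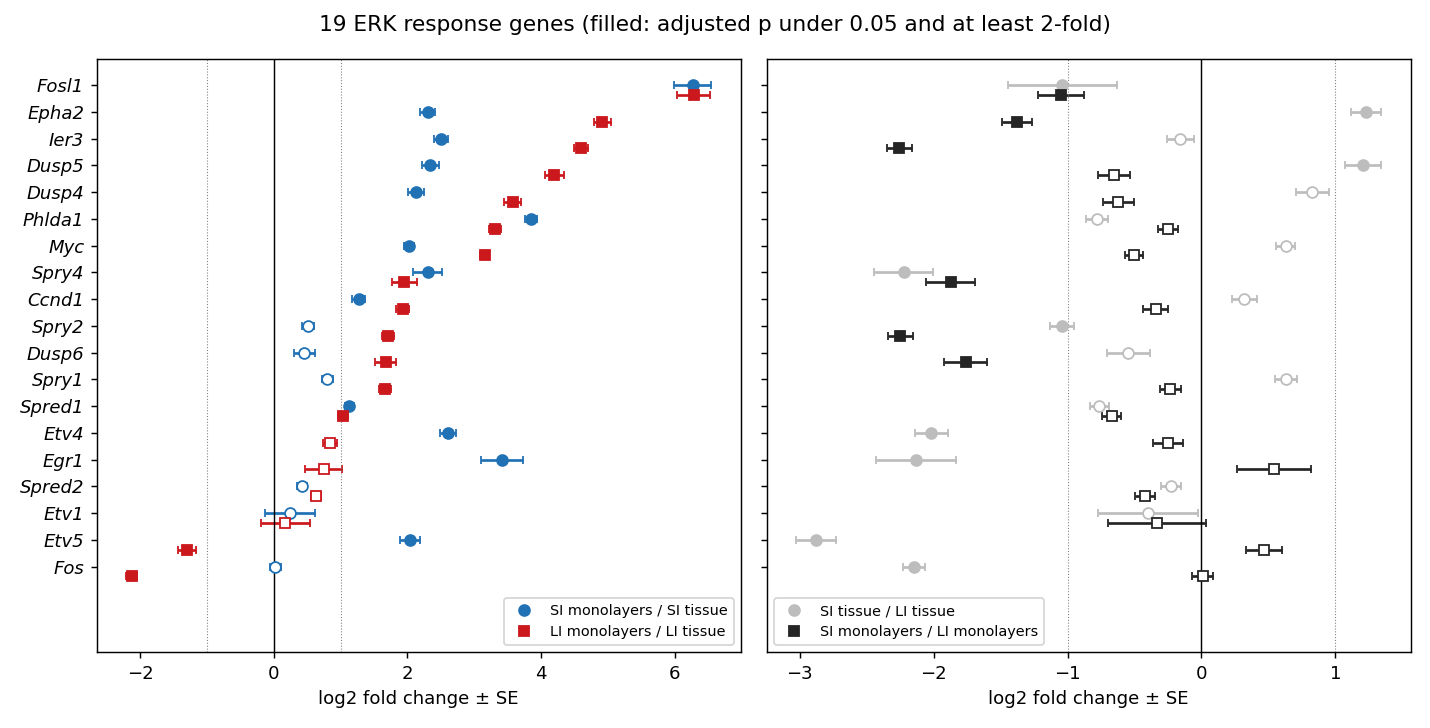
log2 fold changes with standard errors (edgeR) of the 19 ERK response genes, left for monolayers over tissue and right for SI over LI. Filled symbols passed the adjusted p and the 2-fold minimum (dotted lines); 13 genes are filled to the right of 0 in each culture comparison, and 6 are filled to the left of 0 for SI over LI monolayers.

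Of 10 genes of ligand shedding, 2 rose and 2 fell in SI culture and 4 rose and 1 fell in LI culture (median 0.27 and 0.74), beside 26.1% and 38.0% of all tested genes called in either direction, so these counts are not far from the background. Adam8, a metalloprotease, rose most (5.28 ± 0.15 in SI, adjusted p = 2.76e-11, and 7.25 ± 0.16 in LI, adjusted p = 9.06e-13), and it was lower in SI than in LI monolayers (-1.66 ± 0.12, adjusted p = 1.47e-07). Adam19 fell in SI culture (-3.78 ± 0.36, adjusted p = 2.03e-07) and Adam15 in LI culture (-2.11 ± 0.07, adjusted p = 3.24e-13). Adam17, the main sheddase of Areg, Ereg, Hbegf and Tgfa proteins, was picked for that role. It stayed under 2-fold, at 0.32 ± 0.06 in SI (adjusted p = 0.000287) and 0.51 ± 0.06 in LI culture (adjusted p = 1.94e-06). Of the same list, Rhbdf1 rose in both cultures (1.99 ± 0.07 in SI, 1.54 ± 0.07 in LI) and Rhbdf2 in LI culture (1.49 ± 0.07). Adam12, at 0 in SI monolayers and at most 112 normalized counts in LI monolayers, fell in SI and rose in LI culture (-6.37 ± 1.17 and 3.09 ± 0.48). Adam10 lay just under 2-fold in LI culture (0.98 ± 0.07). In tissue Adam19 was higher in SI (1.98 ± 0.32, adjusted p = 7.39e-05) and Adam15 lower (-1.98 ± 0.07, adjusted p = 2.33e-12).

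Of 14 negative regulators of the receptors, 2 rose and none fell in SI culture, and 3 rose and 2 fell in LI culture (median -0.07 and 0.42), which is no more than the 26.1% and 38.0% called over all tested genes. Errfi1, which encodes the feedback inhibitor MIG6, rose most in both (3.11 ± 0.12 in SI, adjusted p = 3.8e-10, and 2.60 ± 0.12 in LI, adjusted p = 6.61e-10). Lrig3 fell in LI culture (-1.95 ± 0.08, adjusted p = 1.34e-12). Sh3kbp1, an adaptor in receptor endocytosis, was lower in SI than in LI in tissue (-1.37 ± 0.14, adjusted p = 4.77e-07) and in monolayers (-2.51 ± 0.14, adjusted p = 5.92e-10).

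Of 16 genes of the RAS-RAF-MEK-ERK cascade, none was called in SI culture, 2 rose in LI culture, 1 differed between tissues and none was called between monolayers. Of all tested genes 26.1%, 38.0%, 22.7% and 21.2% were called in these comparisons. By the adjusted p alone, without the 2-fold minimum, edgeR gave 10 of the 16 in SI culture and 12 between monolayers. The shares of all tested genes were 59.6% and 51.8%. DESeq2 with the minimum also called none of the 16 in SI culture or between monolayers. Nras rose in LI culture (1.64 ± 0.06, adjusted p = 5.33e-13), and Map2k1, which encodes MEK1, was lower in SI than in LI tissue (-1.08 ± 0.06, adjusted p = 2.57e-10). In SI culture Nras lay just under the 2-fold minimum (0.99 ± 0.06, adjusted p = 4.79e-10). Map2k2 between tissues (0.97 ± 0.06) and Mapk3 in LI culture (-0.98 ± 0.05) also lay just short of it. Of 17 genes of the PI3K-AKT-mTOR branch, 1 rose and 3 fell in SI culture and 4 rose and 3 fell in LI culture (median -0.03 and 0.36), close to the shares of 26.1% and 38.0% over all tested genes. Pik3r3 rose and Pik3cd fell in SI culture (1.81 ± 0.08, adjusted p = 2.24e-11, and -3.40 ± 0.14, adjusted p = 8.04e-12). Pik3cb rose in LI culture (2.73 ± 0.07, adjusted p = 8.73e-15). Pik3cd encodes the catalytic subunit known from leukocytes, and the summed immune markers of 13307 to 14526 in SI tissue and 3131 to 3518 in its monolayers moved with it, which was not tested further. Between tissues Pik3cd was higher in SI (1.73 ± 0.13, adjusted p = 8.95e-09). Between monolayers Pik3r2 was higher and Pik3ca lower in SI (1.04 ± 0.05, adjusted p = 1.47e-10, and -1.36 ± 0.06, adjusted p = 9.54e-12).

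The genes whose log2 CPM followed each of the 10 most closely over the 12 libraries were found by Pearson's r, as a description over libraries that share their groups. Egfr went with Tuft1 (0.998) and Ccdc71l (0.997), Areg with Lrp8 (0.992) and Pdlim7 (0.990), and Ereg with Psat1 (0.995) and Aaas (0.992). Hbegf went with Prkx (0.998) and Dpysl3 (0.998), Tgfa with Wbp1l (0.998) and Krt7 (0.997), and Btc with Thop1 (0.996) and Mif (0.995). For Epgn the genes were Dock5 (0.973) and Ets1 (0.955), and for Egf Rsph3a (0.971) and Ntpcr (0.964). Erbb2 went with Pnpla2 (0.981) and Rnf19b (0.940), and Erbb3 with Pptc7 (0.945) and Ccdc186 (0.940).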

How the data were processed

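RNA was measured in 12 libraries of 4 groups, assigned from the labels. The authors aligned paired-end reads to GRCm38 with STAR 2.7.9a, counted them on GENCODE genes with featureCounts 2.0.2 and deposited a table of raw counts per gene. The authors also deposited a normalized signal, in which the counts of a library are divided by its DESeq2 size factor. Counts of 1 to 20 were even in 73.4% to 77.4% of cases, where 50.0% would be even by chance, so both mates of a pair may have been counted; halved counts were tried for this. The limit of 3 counts was 0.0394 to 0.0508 CPM, which covers counting error only.

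Counts were tested with edgeR 4.0.16 (R 4.3.3): filterByExpr, TMM, robust quasi-likelihood fits of the 4 group means, and Benjamini-Hochberg adjustment over 19581 genes within each of 5 comparisons. Standard errors are the log2 fold change divided by the square root of F. The scripts were tested on simulated data. Levels between genes used the exon length of GENCODE mouse release M21 (same build). A list of gene names gave a symbol to 55141 of 55487 genes. Ratios were compared by exact permutation over libraries.

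Alternatives were DESeq2 1.42.0, upper quartile normalization, other filters, no minimum fold, halved counts, only the compared groups, a replicate block, each library left out, and transcript lengths. The genes and lists were chosen with earlier results of these data known. Genes named are the 10, Lrig1, Erbb4, the neuregulins, for each list and pairwise comparison the called gene with the largest rise and fall at a mean of at least 1 CPM, and the 2 genes at a mean of at least 10 CPM with the highest r to each of the 10. Adam17 was added for its known role, and Rhbdf1, Rhbdf2, Adam10 and Adam12 of the same list were added beside it. One gene that this rule names is not reported here.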

Additional observations from a re-analysis of the deposited data

Results flagged for a closer look

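Of the 10 genes, 5 had a response to culture that differed between SI and LI in the test of that difference itself (edgeR, adjusted p under 0.05 and at least 2-fold), beside 20% of all tested genes. The log2 response in SI minus that in LI was 3.10 for Egf, -3.83 for Epgn, 2.50 for Areg, 2.74 for Btc and -1.04 for Erbb3. With 1 library left out in turn it ranged from 2.57 to 3.57 for Egf, from -4.47 to -3.45 for Epgn, from 2.37 to 2.64 for Areg, from 2.64 to 2.95 for Btc and from -1.12 to -0.91 for Erbb3. Egf and Epgn rest on few counts, at most 242 and 136 in any library. The difference for Erbb3 lies at the 2-fold minimum and dropped under it in 8 of these 12 fits. Without any 1 of the monolayer libraries it was -0.94 to -0.91, while the median of all genes moved by 0.101 to 0.111. Part of this may be a shift in scaling, which was not tested.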

How the results depend on the processing

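Values are log2 fold changes unless called counts. Dropping the minimum fold gave 7 genes between tissues, 10 between monolayers and 8 for the interaction, in place of 4, 5 and 5. Leaving out 1 library gave 6 to 7 genes in SI culture, 8 each time in LI culture, 4 each time between tissues, 4 to 5 between monolayers and 4 to 5 for the interaction. A minimum of 10 counts in every library left Epgn untested. Same-numbered libraries did not deviate together (r from -0.0516 to 0.0563), so the replicate block is a check only: with it 6, 8, 4, 4 and 5 genes were called in the same order, and Egf between monolayers was lost (1.14). Egf was also lost there with counts halved (1.15).
Signs turned for values near 0. Erbb2 in LI culture was -0.0639 with upper quartile normalization and -0.024 with at least 10 counts in every library. Erbb2 between tissues was -0.0217 with DESeq2, -0.0728 with upper quartile normalization, -0.0575 with no filter, -0.0415 with at least 10 counts in every library and -0.0636 with only the 2 groups compared. The Hbegf interaction was 0.0774 with upper quartile normalization, 0.0287 with no filter, 0.0084 with at least 10 counts and 0.0005 with the replicate block. Lrig1 in SI culture was 0.0048 with only the 2 groups compared, and Erbb4 in SI culture -0.0084 with the block. Leaving out 1 library gave, in SI culture, -0.57 to 0.12 for Epgn, -0.87 to 0.59 for Erbb4 and -0.0655 to 0.0526 for Lrig1. It gave -0.0425 to 0.102 for Erbb2 in LI culture. Between tissues it gave -0.0769 to 0.0482 for Erbb2, -0.0807 to 0.46 for Ereg, -0.0512 to 0.434 for Nrg1 and -0.112 to 0.0148 for Tgfa. Erbb4 between monolayers ranged from -0.96 to 0.49 and the Hbegf interaction from -0.15 to 0.13. Between tissues, leaving out any monolayer library moved the median of all genes by -0.0775 to -0.0778. Erbb2 was -0.0766 to -0.0769 in those fits. The cause of the turned signs was not tested.
Lengths of the longest transcript in place of all exons moved ligand shares. In SI tissue they were 34.1% for Areg, 20.1% for Hbegf, 33.3% for Tgfa and 1.08% for Egf. In SI monolayers they were 83.3% for Areg, 4.49% for Hbegf, 2.77% for Tgfa, 4.69% for Btc and 0.0222% for Egf. In LI tissue they were 54.2% for Areg, 22.4% for Hbegf, 15.6% for Tgfa and 1.84% for Egf. In LI monolayers they were 73.1% for Areg, 3.92% for Ereg, 15.6% for Hbegf, 5.6% for Tgfa and 0.0138% for Egf.
The sources give 1 mouse per tissue library but no animal for the pools of wells, so p-values for monolayers may measure technical spread only. All groups shared a common estimate of spread for each gene, so p-values between tissues draw on the monolayer libraries as well. For culture, the paper took the large intestine from the same mice as the jejunum. No pairing of libraries by animal is stated, so whether the regions share animals is not known. Levels of Epgn, Egf, Erbb4, the neuregulins, Adam12 and tissue Fosl1 are limited by depth.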
